A study of Homo sapiens with 12 samples.

Results

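Long intergenic noncoding RNAs that carry a LINC symbol were followed through an RNA sequencing experiment on gambogenic acid (GNA) and NRF2. Members were chosen by their symbol, LINC plus a digit, and by their summed counts, at least 240 over the 12 libraries or a mean of 20 per library. This gave 128 genes, of 2268 LINC genes and 61510 genes in the table. Of the other LINC genes, 1030 had counts below the threshold and the rest had none. The threshold used abundance over all libraries and no comparison between groups, so the abundance of the members is a description only. The 3 members nearest above the threshold were LINC00997 with 250 summed counts, and LINC01094 and LINC01637 with 244 each. The 3 nearest below it were LINC00460 with 239, and LINC00623 and LINC03015 with 234 each.

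The cells were A549/DDP, a lung adenocarcinoma line derived from A549 and resistant to cisplatin, and all groups grew with 1 µg/ml cisplatin in the medium. The 4 groups of 3 libraries were cells with a hairpin against NRF2 given 4 µM GNA (shNRF2 GNA) or DMSO (shNRF2 DMSO), and cells with a control hairpin given 4 µM GNA (shNC GNA) or DMSO (shNC DMSO), all for 24 h. Each hairpin is represented by 1 line, so an effect of the hairpin and any other difference between the lines cannot be told apart. Whether the libraries within a group were grown as separate cultures is not in the labels, so the p-values measure only the spread between these libraries. NFE2L2, the gene of NRF2, averaged 45.8 ± 2.00 CPM (counts scaled to library size) in shNRF2 GNA, 50.2 ± 2.80 in shNRF2 DMSO, 87.4 ± 3.85 in shNC GNA and 77.9 ± 3.60 in shNC DMSO (SD, n = 3 each). It was lower in shNRF2 than in shNC in both treatments.

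A LINC symbol is given to a long RNA without a recognised protein product whose gene lies between protein-coding genes. Such RNAs are usually made by RNA polymerase II, spliced and polyadenylated, and most are present in fewer copies per cell than messenger RNAs. Some act at their own locus on neighbouring genes, others bind proteins or microRNAs elsewhere in the cell, and for most members no function is established. NRF2 binds antioxidant response elements, the heat shock factor HSF1 binds heat shock elements, and ATF4 binds composite elements of amino acid stress genes.

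Of the 128 members, 127 had a gene in GENCODE 29 and LINC03009 did not. GENCODE 29 typed 100 of them as lincRNA, 12 as processed transcript, 5 as antisense, 5 as transcribed unprocessed pseudogene, 2 as bidirectional-promoter lncRNA and 1 each as sense-overlapping, transcribed unitary pseudogene and protein-coding. The protein-coding entry is LINC02693, listed there under another name. Positions given for genes are those of GENCODE 29 on GRCh38. The median exon length was 3014 bases, with a range of 404 to 27605, and 9 members had a single exon. The nearest protein-coding gene named in the count table lay a median of 21.9 kb away. It was within 5 kb for 31 members and more than 100 kb away for 26, and 8 members overlapped its body. In 13 members at least 50% of a transcript had a copy elsewhere of at least 97% identity, and 14 more shared at least 10% of their exon bases with another gene. The strand setting of the counting is not given in the sources used here, so the reads of these members may include reads from other genes.

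The members were low in abundance. They took 0.116 ± 0.00226% of all counts in shNRF2 GNA, 0.102 ± 0.000936% in shNRF2 DMSO, 0.123 ± 0.00224% in shNC GNA and 0.104 ± 0.00463% in shNC DMSO (SD, n = 3 each). The GNA libraries did not overlap the DMSO libraries of their line in this share. It is a share of raw library totals. On raw totals the median log2 change with GNA over all tested genes was also above 0, at 0.073 in shNRF2 and 0.119 in shNC. The median member had a mean of 3.76 CPM, against 11.3 CPM over the 15653 genes that passed the filter on low counts. All 128 members passed that filter. Per length, the median member had 0.812 FPKM (fragments per kilobase of exon, scaled to the raw library total without TMM), against 2.3 FPKM over the tested genes, and 55 members reached 1 FPKM. The 6 most counted genes, LINC01322, LINC00342, LINC01234, LINC00963, LINC00662 and LINC00467, held 35.2% of all member counts. A total of 85 members had fewer than 1000 summed counts, and the median standard error of a log2 change in shNC was 0.209 for members and 0.131 for all tested genes.

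The promoters shown belong to 6 of the 7 members called in all 4 pairwise comparisons tested (GNA against DMSO in each line and shNRF2 against shNC in each treatment), LINC03060 being the other. They run from 250 bases before to 50 after the RefSeq start on GRCh38.p14. The sequences run 5′ to 3′ along the gene's strand. Capitals mark a match to the antioxidant response element core TGACNNNGC (in LINC02212 and LINC00471, each on the other strand), to the ATF4 composite element core TGATGNAA (in LINC01133) or to a heat shock element part, GAANNTTC or TTCNNGAA (in LINC02015). LINC01564 and LINC00662 held none of the 3 motifs. The windows are chr5:10502679-10502978 on the minus strand for LINC02212, chr1:159960974-159961273 on the plus strand for LINC01133, chr6:53628130-53628429 on the plus strand for LINC01564, chr2:231514328-231514627 on the minus strand for LINC00471, chr3:177816615-177816914 on the plus strand for LINC02015 and chr19:27793891-27794190 on the minus strand for LINC00662. LINC02212, LINC01133 and LINC01564 share 1 profile (higher with GNA and lower in shNRF2), LINC00471 and LINC00662 were higher in both, and LINC02015 was lower in both.
LINC02212: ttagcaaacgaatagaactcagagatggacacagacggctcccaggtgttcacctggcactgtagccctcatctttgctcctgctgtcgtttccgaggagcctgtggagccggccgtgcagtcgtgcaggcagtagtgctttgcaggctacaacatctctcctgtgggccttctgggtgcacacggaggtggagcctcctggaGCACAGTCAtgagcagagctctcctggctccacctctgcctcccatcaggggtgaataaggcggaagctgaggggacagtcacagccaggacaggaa
LINC01133: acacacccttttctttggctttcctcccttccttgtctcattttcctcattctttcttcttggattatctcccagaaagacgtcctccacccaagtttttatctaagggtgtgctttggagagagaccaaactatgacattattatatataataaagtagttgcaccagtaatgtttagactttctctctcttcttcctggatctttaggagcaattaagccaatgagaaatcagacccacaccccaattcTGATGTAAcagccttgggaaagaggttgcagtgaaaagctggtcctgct
LINC01564: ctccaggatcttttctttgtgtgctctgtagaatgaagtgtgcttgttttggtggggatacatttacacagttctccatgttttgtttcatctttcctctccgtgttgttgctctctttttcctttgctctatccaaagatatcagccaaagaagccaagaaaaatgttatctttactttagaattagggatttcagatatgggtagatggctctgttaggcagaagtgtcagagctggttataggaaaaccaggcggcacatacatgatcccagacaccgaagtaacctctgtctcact
LINC00471: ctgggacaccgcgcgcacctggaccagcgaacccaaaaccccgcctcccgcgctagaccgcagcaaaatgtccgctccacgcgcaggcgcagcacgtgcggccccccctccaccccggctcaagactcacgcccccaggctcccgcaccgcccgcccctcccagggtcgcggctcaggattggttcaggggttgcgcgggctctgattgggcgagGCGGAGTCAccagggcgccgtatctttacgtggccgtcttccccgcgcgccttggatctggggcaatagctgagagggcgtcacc
LINC02015: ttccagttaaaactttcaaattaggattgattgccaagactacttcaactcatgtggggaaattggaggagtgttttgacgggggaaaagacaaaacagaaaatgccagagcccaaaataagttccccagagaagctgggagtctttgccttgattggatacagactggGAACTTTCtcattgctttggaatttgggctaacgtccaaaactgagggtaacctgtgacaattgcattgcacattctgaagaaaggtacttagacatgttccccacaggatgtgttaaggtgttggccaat
LINC00662: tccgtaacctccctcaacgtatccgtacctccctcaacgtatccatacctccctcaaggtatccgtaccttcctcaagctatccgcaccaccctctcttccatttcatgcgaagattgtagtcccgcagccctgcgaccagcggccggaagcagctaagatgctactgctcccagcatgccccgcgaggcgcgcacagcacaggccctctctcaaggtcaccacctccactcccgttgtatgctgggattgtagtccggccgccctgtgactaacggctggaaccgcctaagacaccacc

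Each of these matches is a description of letters in 1 window and not evidence of binding. Promoters were listed for 93 members, 109 promoters in all. TGACNNNGC, searched on both strands, was in 24 of the 109 (22.0%) and in 13.3% of all 35116 promoters listed. GAANNTTC or TTCNNGAA was in 19 (17.4%) against 13.5% of all promoters, and TGATGNAA was in 3 (2.75%) against 3.62%. Among 1633 promoters of other LINC genes the shares were 14.6%, 17.9% and 6.25%. The members' promoters held a median of 11 CG dinucleotides, against 14 in all promoters and 4 in those of other LINC genes, and their GC content was 58.7%, against 58.7% and 47.7%.

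Library totals ran from 12848607 to 17192671 counts, and each library held counts for 127 or 128 members. The first shNC DMSO library lay farther from its group than any other library. Chi-square divided by its degrees of freedom was 8.02 and 6.30 for its 2 pairings, against 3.73 for the pair without it, and 2.28 to 5.30 for pairs in the other groups. In 14 markers of fibroblasts, endothelium and leukocytes only COL1A1 passed 1 CPM in its mean, and the 14 summed to between 6.21 and 9.5 CPM per library. KRT8, KRT18, EPCAM and CDH1, epithelial markers, summed to between 9458 and 16546 CPM, while the lung markers NKX2-1, SFTPB, SFTPC and NAPSA stayed at or below 0.413 CPM. Most of that sum was KRT8 (7430 to 13319 CPM) and KRT18 (1908 to 3281 CPM). CDH1 ran from 31.1 to 71.2 CPM. EPCAM was low, at 1.99 to 3.60 CPM, below COL1A1 at 4.60 to 7.98 CPM, a scale without correction for gene length. Without shNC DMSO replicate 1, 25 members rose and 9 fell with GNA in shNRF2 and 24 rose and 9 fell in shNC, and between the lines 7 were higher and 30 lower in GNA and 18 higher and 25 lower in DMSO. In RNA from whole cultures, fewer cells expressing a gene and less RNA per cell cannot be told apart.

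The most abundant members per length were LINC00342, LINC00467, LINC02506, LINC01234, LINC02966 and LINC00842, with means of 8.70, 7.98, 7.56, 5.79, 5.28 and 5.25 FPKM over the 12 libraries. LINC00342 and LINC02966 have near-identical copies. LINC01234 (chr12:113679459-113773683, minus strand), an RNA studied in lung and gastric cancer, had 62.3, 68.9 and 63.8 CPM in shNRF2 GNA, 57.8, 55.9 and 57.8 in shNRF2 DMSO, 84.0, 76.3 and 78.9 in shNC GNA, and 79.0, 81.4 and 76.4 in shNC DMSO. All 6 shNRF2 libraries were below all 6 shNC libraries, and the log2 difference was -0.29 ± 0.060 in GNA (SE, adjusted p = 0.0005) and -0.47 ± 0.061 in DMSO (adjusted p = 9.0e-07). LINC00467 had 55.3, 64.9 and 55.9 CPM in shNRF2 GNA, 52.1, 56.0 and 62.0 in shNRF2 DMSO, 59.6, 54.3 and 49.7 in shNC GNA, and 47.1, 55.0 and 52.8 in shNC DMSO. Its groups overlapped, and it passed the test in none of the comparisons. LINC02506 had 15.7, 19.8 and 18.3 CPM in shNRF2 GNA and 20.04, 23.7 and 25.4 in shNRF2 DMSO, and its change there was -0.36 ± 0.11 (adjusted p = 0.017, and 0.108 without shNRF2 GNA replicate 1, the call being lost in 5 of 22 settings).

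**Figure D1:**
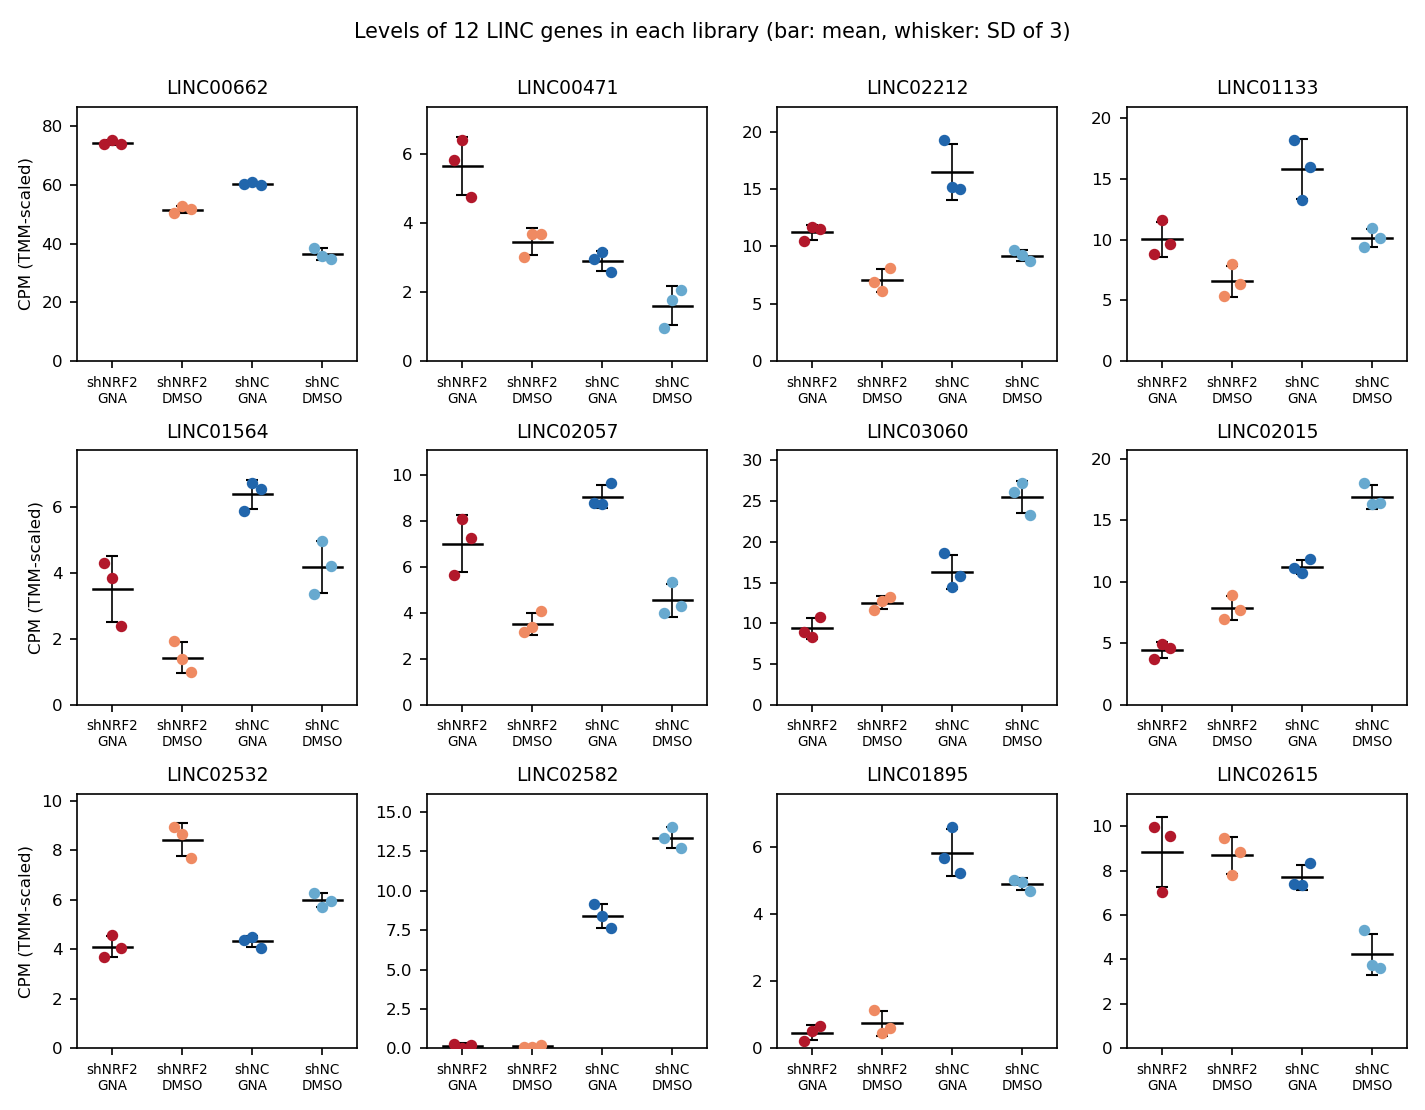
Level in CPM (y axis of each panel, from 0) of 12 LINC genes in each library; points are libraries, bars the mean and whiskers the SD of 3, for shNRF2 GNA, shNRF2 DMSO, shNC GNA and shNC DMSO. LINC02582 stays at or below 0.302 CPM in the 6 shNRF2 libraries and between 7.61 and 14.0 CPM in the 6 shNC libraries, and LINC00662 is highest in shNRF2 GNA.

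GNA was compared with DMSO within each line. In shNRF2 cells 24 members rose and 10 fell at an adjusted p under 0.05, out of 128, while 16.7% of all tested genes rose and 17% fell (33.7% called in either direction; 26.6% of members). In shNC cells 27 members rose and 9 fell, while 14.6% of all tested genes rose and 16.1% fell (30.7% in either direction; 28.1% of members). The median log2 change of the members was 0.077 in shNRF2 and 0.137 in shNC, against 0.0098 and 0.017 over all tested genes. With library totals in place of TMM scaling the members split 29 higher and 6 lower in shNRF2 and 35 and 5 in shNC, and the all-gene median in shNC moved to 0.119. The members' median moved with it, to 0.239. Without shNC DMSO replicate 3 the rises in shNC were 17, and without shNC DMSO replicate 1 the median was 0.239. The falls in shNRF2 were 5 without shNRF2 DMSO replicate 2 and again without replicate 3, and 6 without shNRF2 GNA replicate 3.

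The rises with GNA were mostly moderate. Those called ran from 0.17 to 1.78 on the log2 scale in shNRF2 and from 0.22 to 1.00 in shNC. LINC01012 (chr6:27694035-27710222, plus strand) had 3.17, 1.90 and 4.37 CPM in shNRF2 GNA against 1.09, 0.766 and 0.843 in shNRF2 DMSO, a log2 rise of 1.78 ± 0.33 (adjusted p = 0.00012). In shNC it had 2.09, 1.42 and 1.90 CPM with GNA against 0.896, 1.04 and 0.726 with DMSO (1.00 ± 0.35, adjusted p = 0.030). Its GNA libraries lay above its DMSO libraries in each line, at low counts, and the call in shNC was lost without shNC DMSO replicate 1 or 3 or shNC GNA replicate 1 or 3 (adjusted p of at most 0.108) and with limma on log2(FPKM + 1). LINC02057 (chr5:61201309-61264929, minus strand) had 5.66, 8.11 and 7.26 CPM in shNRF2 GNA against 3.15, 3.37 and 4.06 in shNRF2 DMSO, and 8.78, 8.76 and 9.64 in shNC GNA against 4.00, 5.34 and 4.29 in shNC DMSO. Its rise was about the same in both lines, 1.00 ± 0.18 in shNRF2 (adjusted p = 7.3e-05) and 0.99 ± 0.17 in shNC (adjusted p = 4.1e-05), with a difference of 0.01 ± 0.24 (adjusted p = 0.99). LINC02889 (chr7:17405479-17558909, minus strand), 59.3 kb from the aryl hydrocarbon receptor gene AHR, rose by 0.90 ± 0.24 in shNRF2 and 1.00 ± 0.24 in shNC (adjusted p = 0.0049 and 0.0024).

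LINC00662 (chr19:27684580-27793940, minus strand) was among the 6 most counted members. It had 73.8, 75.3 and 74.0 CPM in shNRF2 GNA, 50.2, 52.8 and 51.6 in shNRF2 DMSO, 60.4, 60.8 and 59.9 in shNC GNA, and 38.6, 35.7 and 34.7 in shNC DMSO. The 4 groups did not overlap, with shNRF2 GNA highest and shNC DMSO lowest. GNA raised it by 0.53 ± 0.060 in shNRF2 (adjusted p = 7.1e-08) and 0.73 ± 0.062 in shNC (adjusted p = 6.2e-10), and the difference of -0.20 ± 0.086 did not pass (adjusted p = 0.18). LINC00662 has been studied as a growth-promoting RNA in several cancers.

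Some rises were called in 1 line. In shNRF2, LINC01833 (chr2:44921077-44939199, minus strand), which starts head to head with the homeobox gene SIX3, had 3.92, 3.29 and 3.20 CPM with GNA against 1.28, 1.38 and 1.69 with DMSO (1.26 ± 0.26, adjusted p = 0.00035). In shNC it had 1.73, 2.78 and 2.39 CPM with GNA against 2.41, 1.90 and 1.72 with DMSO, and the groups overlapped. The difference between the lines was 1.05 ± 0.36 (adjusted p = 0.082), so it is not shown to differ. LINC01094 rose by 1.16 ± 0.39 in shNRF2 (adjusted p = 0.021), and LINC01347, which has a near-identical copy, by 0.79 ± 0.27 (adjusted p = 0.027). In shNC, LINC03006 rose by 0.95 ± 0.27 (adjusted p = 0.0084), LINC00858 by 0.94 ± 0.29 (adjusted p = 0.014), LINC01138 by 0.89 ± 0.29 (adjusted p = 0.019) and LINC00174 by 0.70 ± 0.21 (adjusted p = 0.013). LINC03006, LINC01138 and LINC00174 share exon bases or have a copy elsewhere. All 4 were at or below 5.83 CPM in shNC GNA. On leaving out single libraries the adjusted p reached 0.077 for LINC01094, 0.156 for LINC01347, 0.131 for LINC00858, 0.154 for LINC01138 and 0.102 for LINC00174, while LINC01833 and LINC03006 kept their calls.

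The falls with GNA included LINC02015, LINC03060 and LINC02532 in both lines. LINC02532 (chr6:106717452-106787541, minus strand) had 3.69, 4.56 and 4.06 CPM in shNRF2 GNA against 8.93, 8.65 and 7.67 in shNRF2 DMSO, and 4.39, 4.50 and 4.05 in shNC GNA against 6.27, 5.71 and 5.94 in shNC DMSO. The GNA libraries of the 2 lines overlapped, and the DMSO libraries of shNRF2 were the highest. The log2 change with GNA was -1.03 ± 0.16 in shNRF2 (adjusted p = 7.9e-06) and -0.47 ± 0.16 in shNC (adjusted p = 0.028). The smaller fall was lost in 9 of 22 settings, with an adjusted p of at most 0.126. These were the removal of shNC DMSO replicate 1 or 3 or shNC GNA replicate 1 or 3, and 5 other settings. The 5 were library totals, no filter, both limma settings and a fit of the compared groups alone.

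In shNRF2 cells LINC02747 changed with GNA by -0.66 ± 0.17 (adjusted p = 0.0025) and LINC00472, an RNA described as growth-suppressing in breast and lung cancer, by -0.57 ± 0.15 (adjusted p = 0.0035). LINC02609 changed by -0.49 ± 0.19 (adjusted p = 0.047) and LINC00842 by -0.31 ± 0.12 (adjusted p = 0.049), and these 2 calls were lost in 12 and 15 of the 22 other settings. LINC00472 lost its call in both limma settings (adjusted p of at most 0.0936). In shNC cells LINC01474 (chr9:72871728-72874109, minus strand), 26.6 kb from the aldehyde dehydrogenase gene ALDH1A1, had 0.720, 0.925 and 1.04 CPM with GNA against 2.89, 1.96 and 2.31 with DMSO. It changed by -1.39 ± 0.34 (adjusted p = 0.0023), on 10 to 17 counts per GNA library against 32 to 42 per DMSO library. LINC02977 changed by -1.03 ± 0.31 (adjusted p = 0.014), LINC02582 by -0.68 ± 0.17 (adjusted p = 0.0025) and LINC00488 by -0.56 ± 0.19 (adjusted p = 0.028). LINC02977 lost its call without shNC GNA replicate 3 (adjusted p = 0.0774), and LINC02582 with limma on log2(FPKM + 0.1) (adjusted p = 0.129). LINC00488 lost its call in 7 of 22 settings. These were the removal of any 1 of 4 libraries (adjusted p of at most 0.126), library totals (0.072), no filter (0.071) and limma on log2(FPKM + 0.1) (0.092).

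Of the 24 rises in shNRF2 and 27 in shNC, 14 genes were in both lists, which is 58.3% of the shNRF2 list and 51.9% of the shNC list. Of all tested genes, 2617 rose in shNRF2, 2284 in shNC and 1318 (8.42% of those tested) in both lines. Beside those named above, the 14 members included LINC00941, LINC00205, LINC02693, LINC01278, LINC00680 and LINC00630. LINC01278 had 27.7, 24.7 and 22.8 CPM in shNRF2 GNA against 15.3, 16.7 and 18.6 in shNRF2 DMSO, and 24.8, 26.6 and 24.3 in shNC GNA against 19.2, 21.6 and 19.1 in shNC DMSO. LINC02015, LINC02532 and LINC03060, 3 of the 128 members, fell in both lines, against 10.5% of all tested genes. No member called in both lines moved in opposite directions.

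**Figure D2:**
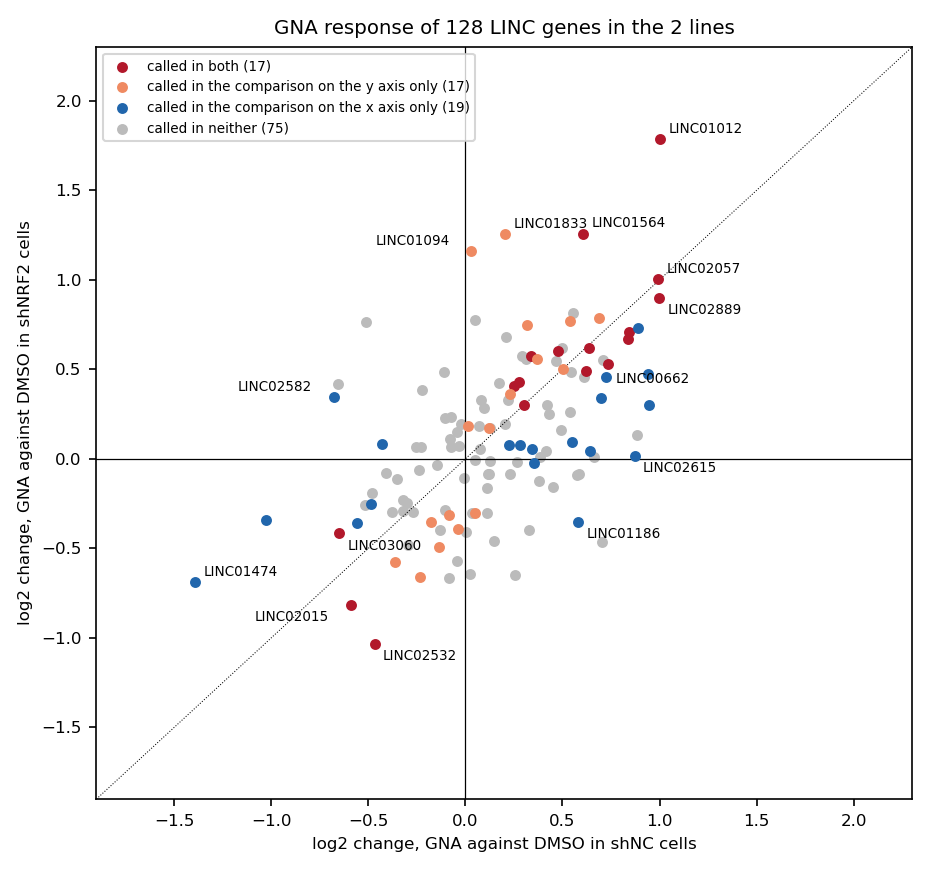
Log2 change with GNA against DMSO for the 128 LINC genes, in shNRF2 cells on the y axis and in shNC cells on the x axis; colours give in which comparison a gene was called at an adjusted p under 0.05, and the dotted line marks equal change. The 17 genes called in both lines lie in the upper right (14 genes) or lower left (LINC02015, LINC02532 and LINC03060).

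The GNA response differed between the lines at an adjusted p under 0.05 for 2 members, both lower in shNRF2, against 6.82% of all tested genes (3.58% higher and 3.24% lower). The number called higher was 0 by edgeR and by DESeq2 and 1 by limma on log2(FPKM + 1), and 6 members had an unadjusted p under 0.05 in that direction in edgeR. LINC02615 (chr4:128292751-128519394, plus strand), which starts head to head with the progesterone receptor membrane component gene PGRMC2, had 9.95, 7.03 and 9.54 CPM in shNRF2 GNA, 9.44, 7.81 and 8.82 in shNRF2 DMSO, 7.41, 7.34 and 8.35 in shNC GNA, and 5.31, 3.74 and 3.63 in shNC DMSO. The shNC DMSO libraries were below all the others, and the 2 shNRF2 groups overlapped. The change with GNA was 0.02 ± 0.16 in shNRF2 and 0.87 ± 0.17 in shNC, a difference of -0.85 ± 0.24 (adjusted p = 0.028). LINC01186 (chrX:46325924-46327645, minus strand) had 5.5, 3.93 and 2.83 CPM in shNRF2 GNA, 5.40, 5.36 and 4.68 in shNRF2 DMSO, 8.35, 6.72 and 8.41 in shNC GNA, and 4.96, 6.44 and 4.22 in shNC DMSO. The shNC GNA libraries were above all the others. The change with GNA was -0.35 ± 0.21 in shNRF2 and 0.58 ± 0.19 in shNC, a difference of -0.93 ± 0.29 (adjusted p = 0.048). Neither call held on leaving out shNC DMSO replicate 3 (adjusted p = 0.0817 for LINC02615 and 0.127 for LINC01186), shNC GNA replicate 3 (0.0752 and 0.112), shNRF2 DMSO replicate 1 (0.0755 and 0.106) or shNRF2 GNA replicate 2 (0.0868 and 0.0994). LINC02615 also lost its call without shNC DMSO replicate 2 (0.0754). LINC01186 also lost it without shNC DMSO replicate 1 (0.0666), shNC GNA replicate 1, shNRF2 DMSO replicate 2 or 3 or shNRF2 GNA replicate 3 (0.155). Both calls were also lost in both limma settings.

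The lines were compared within each treatment. In GNA 8 members were higher and 29 lower in shNRF2 than in shNC, while 12.8% of all tested genes were higher and 13.3% lower (26.1% in either direction; 28.9% of members). In DMSO 15 members were higher and 26 lower, while 16.8% of all tested genes were higher and 18.3% lower (35.2% in either direction; 32.0% of members). The median log2 difference of the members was -0.047 in GNA and -0.028 in DMSO, against 0.013 and 0.011 over all tested genes. The number higher in GNA was 5 without shNC GNA replicate 1 or 3 or without shNRF2 GNA replicate 3, and 4 without shNRF2 GNA replicate 1. Differences of at least 2-fold were called for 8 members in GNA, each lower in shNRF2, and in DMSO for 12 lower and 4 higher. The lower ones in both treatments include LINC02582 and LINC01895, which passed the count threshold through their shNC libraries. Of all tested genes, 2.31% were lower and 1.35% higher by that measure in GNA, and 2.41% lower and 2.52% higher in DMSO.

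**Figure D3:**
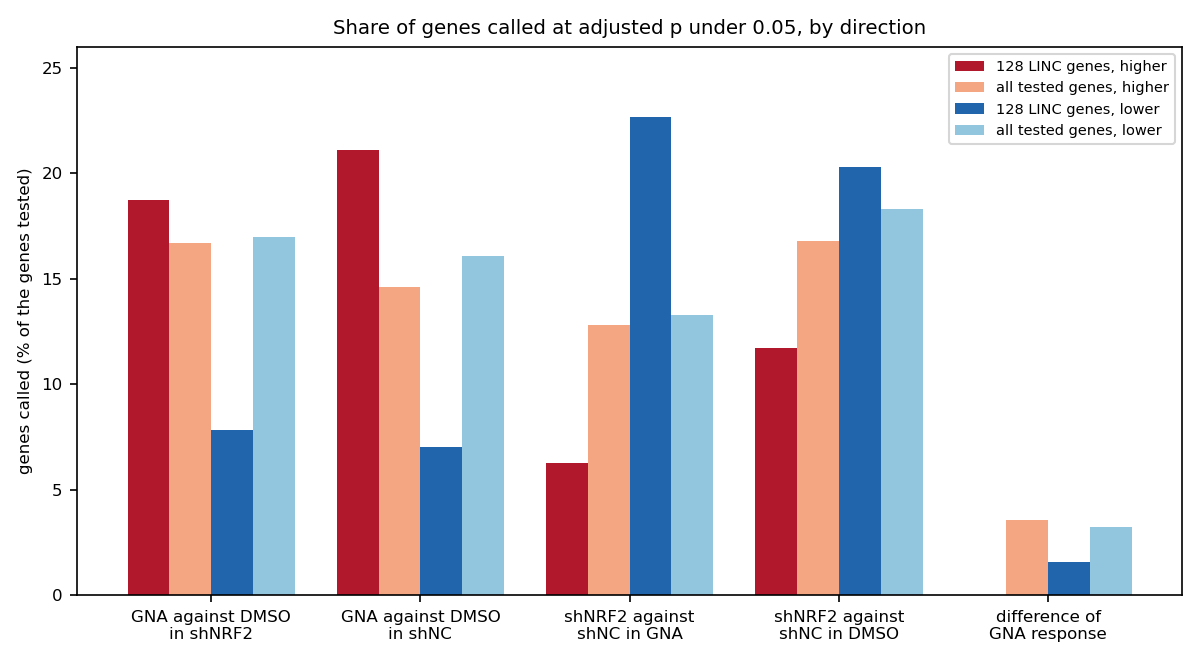
Share of genes called higher or lower (y axis, percent of the genes tested) in each of 5 comparisons, for the 128 LINC genes and for all 15653 tested genes. LINC genes are called lower in shNRF2 than in shNC in GNA in 29 of 128 cases, against 13.3% of all genes. They are called lower with GNA in 10 (shNRF2) and 9 (shNC) of 128, against 17% and 16.1% of all genes.

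Of the 128 members LINC02582 (chr18:73324941-73349878, plus strand) differed most between the lines. It had 0.302, 0 and 0.185 CPM in shNRF2 GNA, 0.0642, 0.0766 and 0.230 in shNRF2 DMSO, 9.14, 8.39 and 7.61 in shNC GNA, and 13.4, 14.0 and 12.7 in shNC DMSO. In counts this was 7 over the 3 shNRF2 GNA libraries against 387 in shNC GNA, and 5 in shNRF2 DMSO against 616 in shNC DMSO. The fitted log2 difference was -5.68 ± 0.33 in GNA (adjusted p = 2.9e-13) and -6.70 ± 0.33 in DMSO (adjusted p = 8.0e-15). Its nearest protein-coding gene, NETO1, lay 457 kb away and was near 0 in all groups, at 0.335 ± 0.295 CPM in shNRF2 GNA, 0.0980 ± 0.0483 in shNRF2 DMSO, 0.123 ± 0.162 in shNC GNA and 0.132 ± 0.0708 in shNC DMSO.

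LINC01895, on the same chromosome (chr18:3347776-3350559, minus strand), had 0.226, 0.507 and 0.677 CPM in shNRF2 GNA, 1.16, 0.459 and 0.613 in shNRF2 DMSO, 5.69, 6.60 and 5.22 in shNC GNA, and 5.03, 4.97 and 4.69 in shNC DMSO. All shNRF2 libraries were far below all shNC libraries, by -3.57 ± 0.30 in GNA (adjusted p = 5.1e-10) and -2.67 ± 0.29 in DMSO (adjusted p = 3.7e-08). With 3 to 18 counts in each shNRF2 library, LINC01895 too passed the threshold through its shNC libraries. Its nearest protein-coding gene TGIF1, a homeobox repressor 61.0 kb away, was higher in shNRF2, by 0.30 ± 0.052 in GNA and 0.23 ± 0.052 in DMSO (adjusted p = 6.0e-05 and 0.00093). There were 6 members on chromosome 18.

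The next members were lower in shNRF2 by similar amounts in both treatments. LINC02901 (chr6:158869939-158919105, plus strand) had 1.36, 1.58 and 1.17 CPM in shNRF2 GNA, 1.61, 1.22 and 2.22 in shNRF2 DMSO, 4.46, 4.26 and 4.05 in shNC GNA, and 5.31, 5.71 and 5.54 in shNC DMSO. The log2 difference was -1.63 ± 0.23 in GNA (adjusted p = 4.6e-06) and -1.71 ± 0.22 in DMSO (adjusted p = 7.7e-07). LINC00488 (chr3:109178143-109216965, plus strand) differed by -1.59 ± 0.23 in GNA and -1.78 ± 0.22 in DMSO (adjusted p = 8.3e-06 and 3.4e-07). LINC02732 (chr11:110355130-110406400, plus strand) differed by -1.33 ± 0.21 and -1.56 ± 0.20 (adjusted p = 2.1e-05 and 7.2e-07), and LINC01948 (chr5:56457795-56481946, minus strand) by -1.40 ± 0.24 and -1.46 ± 0.23 (adjusted p = 6.0e-05 and 1.5e-05). In each of these 4 genes the shNRF2 libraries lay below the shNC libraries in both treatments.

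Fewer members were higher in shNRF2. LINC00471 and LINC01473 led in both treatments, and LINC00641 and LINC00662 were also higher in both. LINC01473 (chr2:186032891-186083233, minus strand) had 2.49, 1.77 and 2.46 CPM in shNRF2 GNA, 2.18, 1.76 and 2.15 in shNRF2 DMSO, 1.22, 1.60 and 0.798 in shNC GNA, and 0.482, 0.736 and 0.726 in shNC DMSO. It was higher by 0.88 ± 0.31 in GNA (adjusted p = 0.036) and 1.63 ± 0.35 in DMSO (adjusted p = 0.00059), and the first call was lost in 7 of 22 settings, 4 of them the removal of 1 GNA library. LINC00641 (chr14:21200079-21206900, minus strand), 2.24 kb from the RNA-binding protein gene HNRNPC, had 19.7, 17.5 and 18.2 CPM in shNRF2 GNA, 20.6, 18.6 and 16.9 in shNRF2 DMSO, 12.2, 14.3 and 13.6 in shNC GNA, and 12.8, 9.75 and 9.04 in shNC DMSO. It was higher by 0.46 ± 0.12 in GNA (adjusted p = 0.0040) and 0.84 ± 0.12 in DMSO (adjusted p = 4.0e-06). In DMSO LINC02615 was higher by 1.05 ± 0.17 (adjusted p = 2.9e-05), LINC03072 by 1.03 ± 0.36 (adjusted p = 0.027) and LINC00174 by 0.81 ± 0.21 (adjusted p = 0.0038). In GNA LINC01347 was higher by 0.87 ± 0.27 (adjusted p = 0.017), LINC01012 by 0.81 ± 0.30 (adjusted p = 0.046) and LINC00910 by 0.46 ± 0.17 (adjusted p = 0.048), and the calls of LINC01012 and LINC00910 were lost in 10 and 15 of 22 settings. LINC01347 lost its call without shNC GNA replicate 1 or shNRF2 GNA replicate 1 (at most 0.117). LINC03072 lost its call without shNC DMSO replicate 1 or 2 or shNRF2 DMSO replicate 1 or 2, with an adjusted p of at most 0.131.

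The sets lower in shNRF2 overlapped between treatments. In all, 19 members were lower in both GNA and DMSO, 65.5% of the list in GNA and 73.1% of that in DMSO. Of all tested genes, 2080 were lower in GNA, 2872 in DMSO and 1440 (9.2% of those tested) in both. Another 4 members were higher in both, 50% of the list in GNA and 26.7% of that in DMSO. Of all tested genes, 2010 were higher in GNA, 2636 in DMSO and 1199 (7.66% of those tested) in both. No member was called in opposite directions. LINC00886, one of the 19, had 15, 15.9 and 14.3 CPM in shNRF2 GNA, 15, 17.5 and 15.6 in shNRF2 DMSO, 26.8, 23.9 and 25.5 in shNC GNA, and 20.3, 21.7 and 23.0 in shNC DMSO.

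**Figure D4:**
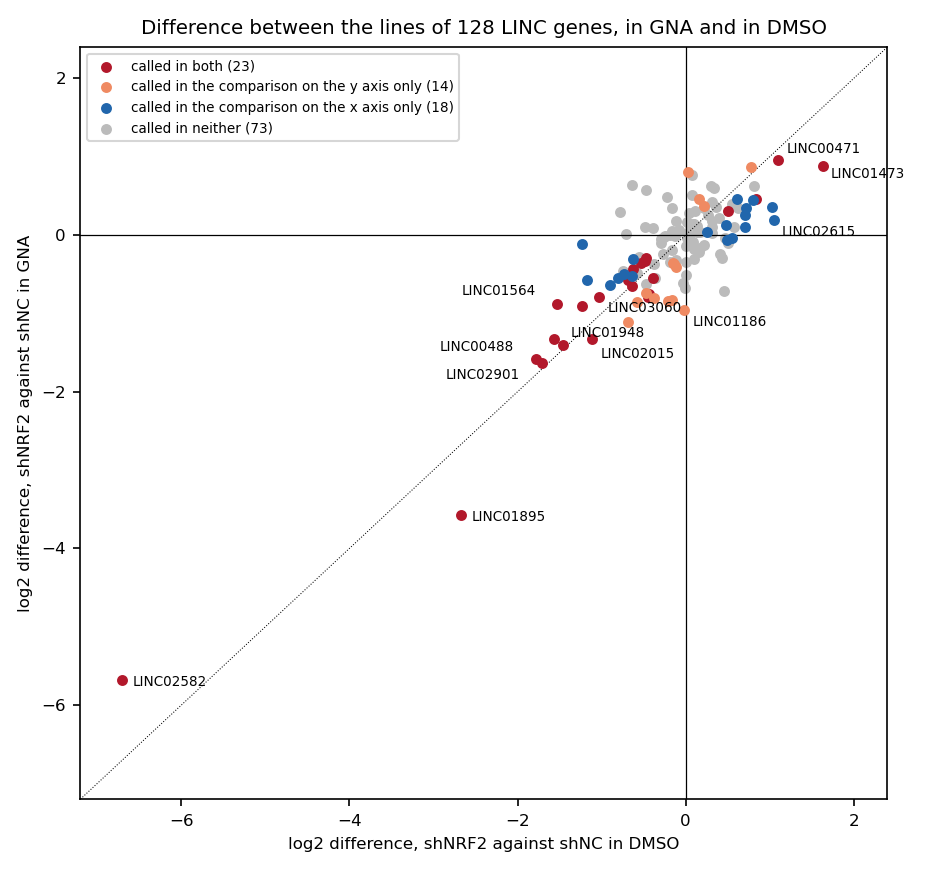
Log2 difference between shNRF2 and shNC for the 128 LINC genes, in GNA on the y axis and in DMSO on the x axis; colours give in which treatment a gene was called at an adjusted p under 0.05, and the dotted line marks equal differences. LINC02582 and LINC01895 stand at the lower left, and all 23 genes called in both treatments lie on the same side of 0 in both.

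In total 7 members passed the test in all 4 pairwise comparisons, while 6.48% of all tested genes did. These comparisons share libraries with each other. The 7 were LINC00662, LINC00471, LINC02212, LINC01133, LINC01564, LINC03060 and LINC02015. In 5 members, LINC00662, LINC03060, LINC02212, LINC02015 and LINC02747, the libraries of all 4 groups did not overlap, against 4.99% of all tested genes. In all, 78 of the 128 members were called in at least 1 pairwise comparison and 50 in none, while 60.6% of all tested genes were called in at least 1.

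LINC00471 (chr2:231508426-231514339, minus strand) had 5.81, 6.4 and 4.74 CPM in shNRF2 GNA, 3.02, 3.67 and 3.68 in shNRF2 DMSO, 2.95, 3.15 and 2.58 in shNC GNA, and 0.965, 1.78 and 2.05 in shNC DMSO. GNA raised it by 0.71 ± 0.21 in shNRF2 and 0.84 ± 0.25 in shNC (adjusted p = 0.011 and 0.012), and it was higher in shNRF2 by 0.96 ± 0.21 in GNA and 1.10 ± 0.25 in DMSO (adjusted p = 0.0012 and 0.0011). Like LINC00662 it was highest with both GNA and the NRF2 hairpin. Its GNA calls were lost in shNRF2 on removal of shNRF2 GNA replicate 2 or of shNRF2 DMSO replicate 1 (adjusted p of at most 0.0611) and without shNC DMSO replicate 1 in shNC (0.0729).

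LINC02212, LINC01133 and LINC01564 rose with GNA and were lower in shNRF2. LINC02212 (chr5:10493527-10502728, minus strand), which shares 10.8% of its exon bases with an unnamed lincRNA on the same strand, had 10.5, 11.7 and 11.5 CPM in shNRF2 GNA, 6.94, 6.12 and 8.13 in shNRF2 DMSO, 19.3, 15.2 and 15 in shNC GNA, and 9.65, 9.26 and 8.71 in shNC DMSO. GNA raised it by 0.67 ± 0.14 in shNRF2 and 0.84 ± 0.13 in shNC (adjusted p = 0.00032 and 8.6e-06). Its difference between the lines was -0.55 ± 0.12 in GNA (adjusted p = 0.0013) and -0.38 ± 0.14 in DMSO (adjusted p = 0.034), the second call being lost in 8 of 22 settings.

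LINC01133 (chr1:159961218-159984750, plus strand), studied in lung squamous and colorectal cancer, had 8.82, 11.7 and 9.60 CPM in shNRF2 GNA, 5.40, 7.96 and 6.36 in shNRF2 DMSO, 18.2, 13.3 and 16.0 in shNC GNA, and 9.37, 10.9 and 10.1 in shNC DMSO. Its rise with GNA was 0.62 ± 0.16 in shNRF2 and 0.64 ± 0.14 in shNC (adjusted p = 0.0027 and 0.00092), and its difference between the lines was -0.65 ± 0.14 in GNA and -0.63 ± 0.16 in DMSO (adjusted p = 0.00093 and 0.0023). The 4 steps were of nearly equal size.

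LINC01564 (chr6:53628380-53631394, plus strand) lies 11.4 kb from GCLC, the catalytic subunit of glutamate-cysteine ligase and a known NRF2 target, on the opposite strand. It had 4.30, 3.86 and 2.4 CPM in shNRF2 GNA, 1.93, 1.38 and 0.997 in shNRF2 DMSO, 5.90, 6.72 and 6.57 in shNC GNA, and 3.38, 4.97 and 4.22 in shNC DMSO. GNA raised it by 1.26 ± 0.27 in shNRF2 (adjusted p = 0.00052) and 0.61 ± 0.21 in shNC (adjusted p = 0.029). Its difference between the lines was -0.87 ± 0.22 in GNA (adjusted p = 0.0031) and -1.52 ± 0.26 in DMSO (adjusted p = 4.2e-05). The rise in shNC was lost on removing any 1 of 4 libraries, with an adjusted p of at most 0.115. GCLC itself averaged 37.6 ± 2.4 CPM in shNRF2 GNA, 46.0 ± 1.98 in shNRF2 DMSO, 50.9 ± 1.14 in shNC GNA and 47.5 ± 1.52 in shNC DMSO. It fell with GNA in shNRF2 (-0.29 ± 0.068, adjusted p = 0.0016), where LINC01564 rose. In GNA both were lower in shNRF2, GCLC by -0.44 ± 0.067 (adjusted p = 1.6e-05). In DMSO GCLC did not pass between the lines (-0.05 ± 0.067, adjusted p = 0.64), nor with GNA in shNC (0.10 ± 0.066, adjusted p = 0.27). LINC01564 was called in both of these comparisons.

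LINC03060 (chr7:134416290-134432453, minus strand) and LINC02015 were lower with GNA and lower in shNRF2. LINC03060 had 8.90, 8.36 and 10.8 CPM in shNRF2 GNA, 11.6, 12.7 and 13.3 in shNRF2 DMSO, 18.6, 14.4 and 15.8 in shNC GNA, and 26.1, 27.2 and 23.3 in shNC DMSO. Its change with GNA was -0.41 ± 0.12 in shNRF2 and -0.65 ± 0.11 in shNC (adjusted p = 0.011 and 3.3e-05), and its difference between the lines was -0.79 ± 0.12 in GNA and -1.03 ± 0.11 in DMSO (adjusted p = 1.2e-05 and 5.2e-08). The call in shNRF2 was lost without shNRF2 GNA replicate 2 (adjusted p = 0.0723) and with limma on log2(FPKM + 1). Its neighbour 9.90 kb away on the same strand is AKR1B1, aldose reductase, an NADPH-dependent enzyme that reduces glucose and aldehydes. AKR1B1 averaged 690 ± 8.86 CPM in shNRF2 GNA, 1265 ± 37.2 in shNRF2 DMSO, 1141 ± 50.9 in shNC GNA and 2063 ± 99.7 in shNC DMSO. It was lower in the same 4 comparisons. Its change with GNA was -0.87 ± 0.046 in shNRF2 and -0.85 ± 0.045 in shNC, and its difference between the lines was -0.73 ± 0.046 in GNA and -0.71 ± 0.045 in DMSO.

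LINC02015 (chr3:177816865-177899224, plus strand) had 3.69, 4.94 and 4.62 CPM in shNRF2 GNA, 7.00, 8.88 and 7.67 in shNRF2 DMSO, 11.1, 10.7 and 11.8 in shNC GNA, and 18, 16.3 and 16.4 in shNC DMSO. The 4 groups did not overlap and shNRF2 GNA was lowest. The changes with GNA were -0.81 ± 0.15 in shNRF2 and -0.59 ± 0.12 in shNC (adjusted p = 7.9e-05 and 0.00039), and the differences between the lines -1.33 ± 0.14 in GNA and -1.11 ± 0.13 in DMSO (adjusted p = 3.5e-08 and 1.1e-07). LINC02747 (chr11:69475567-69481545, minus strand) had 3.32, 3.93 and 4.86 CPM in shNRF2 GNA, 6.55, 5.97 and 6.75 in shNRF2 DMSO, 6.98, 7.03 and 7.24 in shNC GNA, and 8.61, 8.77 and 7.59 in shNC DMSO. Its groups did not overlap either, but it passed the test for GNA in shNRF2 and for the lines in GNA (-0.80 ± 0.16, adjusted p = 0.00044).

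**Figure D5:**
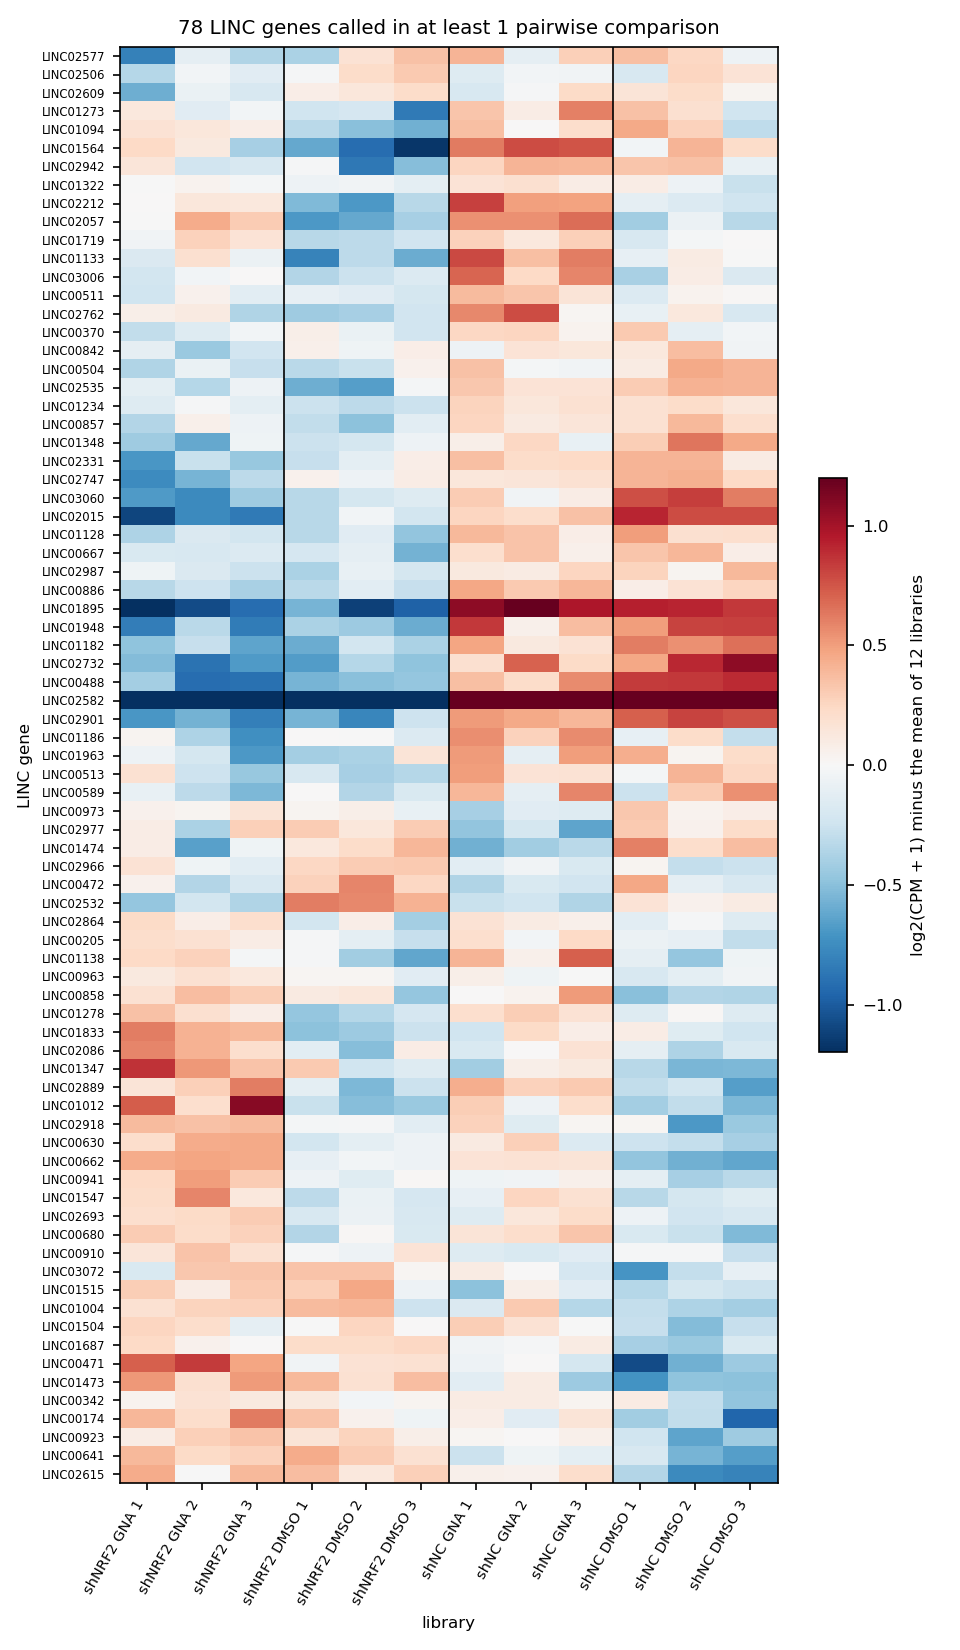
Levels of the 78 LINC genes called in at least 1 pairwise comparison (rows) in the 12 libraries (columns), as log2(CPM + 1) minus the gene's mean over the libraries; rows are ordered by similarity of profile and colours stop at 1.2 in both directions. LINC02582 is dark blue in all shNRF2 libraries and dark red in all shNC libraries. LINC01895 is below its mean in all shNRF2 libraries, least so in shNRF2 DMSO replicate 1, and above it in all shNC libraries.

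Members were set beside their nearest protein-coding gene. The neighbour was tested for 93 of 127 members. Across these 93 pairs the Spearman rank correlation of the 2 log2 changes was 0.23 for GNA in shNRF2, 0.17 for GNA in shNC, 0.25 for the lines in GNA and 0.16 for the lines in DMSO, a description over genes that share libraries. Of the 93 neighbours themselves, 47.3% were called with GNA in shNRF2, 48.4% with GNA in shNC, 37.6% between the lines in GNA and 44.1% in DMSO, whatever their member did. With GNA in shNRF2, 25 of the members were called and 13 of their neighbours were too, 8 in the same direction and 5 in the opposite one. With GNA in shNC, 24 members and 11 of their neighbours were called, 6 in the same direction and 5 in the opposite one. Between the lines in GNA, 26 members and 13 of their neighbours were called, 10 in the same direction and 3 in the opposite one. In DMSO, 30 members and 13 of their neighbours were called, 9 in the same direction and 4 in the opposite one. The share of called members whose neighbour was also called was 52% and 45.8% for GNA in shNRF2 and shNC, and 50% and 43.3% for the lines in GNA and DMSO.

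There are 11 members that start within 5000 bases of a protein-coding gene's start on the opposite strand. That gene was tested for 10 of them. With GNA in shNRF2, 4 of these members and 4 of the genes were called, and 2 pairs were called together. With GNA in shNC it was 3 members, 2 genes and 1 pair. Between the lines it was 1 member, 7 genes and 0 pairs in GNA, and 3 members, 7 genes and 2 pairs in DMSO. The pairs described next are those called together. LINC00941 and CAPRIN2, whose starts are 216 bases apart, both rose with GNA in both lines, LINC00941 by 0.43 in shNRF2 and 0.27 in shNC (adjusted p = 0.00026 and 0.018) and CAPRIN2 by 0.21 ± 0.061 in each (adjusted p = 0.0096 and 0.0093). LINC01547 and SLX9, 97 bases apart, both rose with GNA in shNRF2, by 0.77 and 0.24 (adjusted p = 0.027 and 0.033). LINC01004 and KMT2E, a histone-methylation reader gene 1135 bases away, were both higher in shNRF2 in DMSO, by 0.72 and 0.27 (adjusted p = 0.017 and 5.2e-05). LINC02615 and PGRMC2 were both higher in shNRF2 in DMSO, PGRMC2 by 0.16 ± 0.060 (adjusted p = 0.046). With GNA PGRMC2 changed by -0.18 ± 0.061 in shNRF2 (adjusted p = 0.021) and by -0.01 ± 0.061 in shNC (adjusted p = 0.92).

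Other long noncoding RNAs were counted in the same fit. The antisense, divergent and microRNA host classes held only genes with at least 240 summed counts, the threshold used for the members. Of all tested genes, 16.7% rose and 17% fell with GNA in shNRF2 (33.7% called), and 14.6% rose and 16.1% fell in shNC (30.7%). Between the lines 12.8% were higher and 13.3% lower in GNA (26.1%), and 16.8% higher and 18.3% lower in DMSO (35.2%). Of 228 tested antisense genes, with symbols ending in AS and a number, 41 rose and 6 fell with GNA in shNRF2, and 54 rose and 4 fell in shNC. Between the lines 15 were higher and 15 lower in shNRF2 in GNA, and 37 higher and 10 lower in DMSO. Those called were 20.6%, 25.4%, 13.2% and 20.6% of the antisense genes in the 4 comparisons, in this order. VLDLR-AS1 rose by 2.11 ± 0.32 in shNRF2 and 2.76 ± 0.34 in shNC (adjusted p = 8.2e-06 and 4.9e-07). Of 87 tested divergent transcripts 16 rose and 4 fell with GNA in shNRF2 (23.0% called) and 13 rose and 3 fell in shNC (18.4%). Between the lines 6 of them were higher and 9 lower in GNA (17.2%), and 9 higher and 10 lower in DMSO (21.8%). Of 20 microRNA host genes 2 rose and 3 fell with GNA in shNRF2 (25% called) and 6 rose and 2 fell in shNC (40%). Between the lines 1 of them was higher and 3 lower in GNA (20%), and 4 higher and 2 lower in DMSO (30%).

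A list of 40 well-studied long noncoding RNAs outside the LINC symbols had 30 tested genes, and the threshold on summed counts was not applied to it. Of these 10 rose and 2 fell with GNA in shNRF2 (40% called, against 33.7% of all tested genes), and 13 rose and 1 fell in shNC (46.7% against 30.7%). Between the lines 6 were higher and 4 lower in GNA (33.3% against 26.1%), and 11 higher and 5 lower in DMSO (53.3% against 35.2%). MEG3, an imprinted growth-restraining RNA, averaged 45.3 CPM in shNRF2 GNA, 25.5 in shNRF2 DMSO, 16.0 in shNC GNA and 7.67 in shNC DMSO. It rose with GNA by 0.83 ± 0.10 in shNRF2 and 1.07 ± 0.13 in shNC and was higher in shNRF2 by 1.5 ± 0.11 in GNA and 1.74 ± 0.12 in DMSO. LUCAT1, lung cancer associated transcript 1, differed between the lines by -1.2 ± 0.071 in GNA and -1.14 ± 0.072 in DMSO (adjusted p = 4.3e-13 and 1.1e-12). LNCAROD changed with GNA by -1.61 ± 0.099 in shNRF2 and -1.29 ± 0.096 in shNC (adjusted p = 5.6e-13 and 4.7e-11).

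Among 36 LINC genes named in published cancer work, 17 were members and 16 were below the threshold. LINC00662, LINC00472, LINC01133, LINC01833, LINC00174, LINC00857 and LINC00511 are among the members of that list. LINC00857, 2138 bases from ANXA11, differed by -0.63 ± 0.15 between shNRF2 and shNC in DMSO (adjusted p = 0.0016), and LINC00511 by -0.41 ± 0.10 in GNA (adjusted p = 0.0034).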

How the data were processed

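Bulk RNA sequencing of total RNA from 12 libraries was analysed. The authors deposited whole-number counts per gene and FPKM values per gene. The GRCh38 build and DESeq2 are named in the submitters' processing notes; aligner, counter, annotation release and strand setting were not given in the sources used. Members, lists and tests were chosen with earlier results of these data known.

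Counts passed filterByExpr (minimum count 10, minimum total 15), were scaled by TMM, and were fitted by quasi-likelihood in edgeR 4.0.16 (R 4.3.3), the 4 groups in 1 model, leaving 8 residual degrees of freedom. P-values (two-sided) were adjusted by Benjamini-Hochberg over all 15653 tested genes, and calls used an adjusted p under 0.05. The SE is the log2 change divided by the square root of F. With 3 libraries against 3, the smallest exact permutation p is 0.1. Levels are CPM on TMM-scaled totals; comparisons of levels between genes used the deposited FPKM.

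Positions, types and neighbours came from GENCODE 29 (GRCh38), copies from BLAST 2.17.0 and promoters from RefSeq GRCh38.p14. Under the rule for named genes, the text names the 6 members highest in FPKM, the 6 largest called rises and falls per comparison at 1 CPM or more, the called differences of response, and members called in all 4 pairwise comparisons or with 4 groups apart. LINC00857, LINC00511, LINC01278, LINC00886 and the head-to-head pairs were named after their values were seen. The fit was tested on simulated data.

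Alternatives were other scalings in edgeR (library totals, upper-quartile factors, DESeq2 size factors), DESeq2 1.42.0, no filter, at least 1 CPM in 3 libraries, limma 3.58.1 on log2(FPKM + 1) and log2(FPKM + 0.1), a fit of the compared groups alone, a replicate block, thresholds of 600 and 120 summed counts, and each library left out. Restriction to members without a copy or shared exons was added after seeing the data.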

Additional observations from a re-analysis of the deposited data

Results flagged for a closer look

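LINC02615 was picked out because its GNA response differed between the lines, by the interaction term of the edgeR fit. The change with GNA was 0.02 in shNRF2 and 0.87 in shNC, a difference of -0.85 ± 0.24 (adjusted p = 0.028).

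LINC01186 was picked out for the same reason. The change with GNA was -0.35 in shNRF2 and 0.58 in shNC, a difference of -0.93 ± 0.29 (adjusted p = 0.048). Leaving out 1 library at a time ended the call of LINC01186 in 9 of 12 fits and that of LINC02615 in 5 of 12, and both limma settings ended both calls.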

How the results depend on the processing

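Of 93 calls on 41 named members, 56 held in all 22 other settings and 37 were lost in at least 1; the cause was not tested. With library totals, members lower with GNA were 6 in shNRF2 and 5 in shNC, the medians were 0.140 and 0.239, the median between the lines in DMSO was 0.026 and that of the difference of response -0.062. With limma on log2(FPKM + 0.1), 4 were lower with GNA in each line (medians 0.138 and 0.224), 19 were lower in shNRF2 in GNA, the DMSO median was 0.031, and the difference of response had 0 lower and a median of -0.065. The all-gene counts moved too. In that setting 1985 genes fell with GNA in shNRF2 and 1417 in shNC (2657 and 2526 with TMM in edgeR). Their medians were 0.067 and 0.108. Between the lines in GNA 1732 genes were lower (2080 with TMM in edgeR), and 329 were lower for the difference of response (507). With limma on log2(FPKM + 1), 3 were lower with GNA in shNRF2, and the difference of response had 1 higher and 0 lower. Over all tested genes 1997 were then lower with GNA in shNRF2. The difference of response had 301 higher and 356 lower (561 and 507 with TMM in edgeR). Members higher in shNRF2 in GNA were 5 with no filter, DESeq2, the replicate block or a threshold of 600. All genes higher there were 1737 with no filter, 1796 with DESeq2 and 1935 with the block, against 2010 in the planned fit. With a threshold of 120 the medians were -0.0016 between the lines in GNA and -0.112 for the difference of response.

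Leaving out each library in turn gave, for GNA in shNRF2 cells, 17 to 25 rises and 5 to 10 falls (median 0.0773 to 0.128), and in shNC 17 to 27 higher and 6 to 9 lower (median 0.107 to 0.239). Between the lines it gave 4 to 9 higher and 21 to 30 lower in GNA (median -0.0708 to -0.0353), and 11 to 18 higher and 21 to 28 lower in DMSO (median -0.0894 to -0.0245). The difference of response had 0 to 3 lower (median -0.0780 to 0.0198). These member counts are not set beside the all-gene counts of the same fits.

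Some uncalled values changed sign. The change of LINC00842 with GNA in shNC was -0.084, against 0.019 with library totals, 0.020 and 0.025 with limma, and -0.183 to 0.044 on leaving out libraries. On leaving out libraries LINC00467 with GNA in shNRF2 ran from -0.025 to 0.122, and in shNC LINC01234 ran from -0.025 to 0.043 and LINC02966 from -0.015 to 0.168. LINC02506 between the lines in DMSO ran from -0.044 to 0.188. The difference of response ran from -0.100 to 0.047 for LINC00467, -0.339 to 0.115 for LINC00471 and -0.145 to 0.144 for LINC01133.

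The fit did not pair libraries by their numbers. Of 18 same-numbered pairs, 0 had a correlation of deviations over 0.1 (range -0.0436 to 0.0275), and 2 of 12 libraries correlated best with their own number. This check cannot show whether same-numbered libraries were handled together. With the replicate block the counts higher and lower were 23 and 9 with GNA in shNRF2, 27 and 9 in shNC, 5 and 29 between the lines in GNA, 15 and 26 in DMSO, and 0 and 2 for the difference of response. Library totals moved the all-gene split to 3356 rises and 2091 falls with GNA in shNRF2 (2617 and 2657 with TMM), 3543 and 1542 in shNC (2284 and 2526), and 3226 and 2266 between the lines in DMSO (2636 and 2872). The 101 members without a copy or shared exons gave 19 and 9, 20 and 9, 6 and 24, 12 and 22, and 0 and 2 in the same order, an alternative chosen after seeing the data. Low counts limit the members, 85 of which had fewer than 1000 in all.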
